A study of Mus musculus with 16 samples.

Results

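The 32 genes described here carry glucose into brain cells, break it down to pyruvate, exchange pyruvate and lactate, and admit pyruvate to the mitochondria. They were chosen by name from the table of 22880 genes as the genes of glycolysis, lactate dehydrogenase and monocarboxylate transport, the mitochondrial pyruvate carrier, and pyruvate dehydrogenase with its kinases. All 32 were found, and all 32 passed the filter on low counts in every comparison. The RNA came from the brain cortex of 16 mice, sequenced singly, with an F1 C57Bl6/J x Sv129 background and 4 mice in each of 4 groups. WT_BL were wild type littermates left undisturbed in the home cage, and WT_SD were wild type littermates sleep deprived for 4 h after the lights came on, by gentle handling. KO_BL and KO_SD were animals labelled BK deficient, which lack the large-conductance calcium-activated potassium channel, under the same 2 conditions, and all tissue was taken at zeitgeber time 4 h. The age and sex of the animals, the allele of the knockout and the litters are not stated in the labels. Animals were housed in groups of 2, so that the libraries are separate animals that may share a cage.

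Glycolysis converts glucose to pyruvate in the cytosol and yields ATP quickly without oxygen. Hexokinase and phosphofructokinase commit the sugar, and fructose-2,6-bisphosphate, made and degraded by the PFKFB enzymes, is the strongest known activator of phosphofructokinase. Pyruvate is then reduced to lactate or enters mitochondria, where pyruvate dehydrogenase, switched off by its kinases, turns it into acetyl-CoA. In the brain astrocytes are held to be the more glycolytic cells and neurons the more oxidative ones, and brain lactate is known to rise in wakefulness.

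The deposited normalized counts were reads multiplied by 1 factor per library, and whole reads recovered from them gave depths from 8.76 M (KO_BL 1) to 30.5 M reads (KO_SD 2). The gene of the BK channel, Kcnma1, was counted in every library, with normalized counts from 823 to 1889 in the libraries labelled wild type and from 432 to 2156 in those labelled knockout, so it does not check the genotype labels. The tissue differed between the libraries. All 11 striatal marker genes had lower means after sleep deprivation in both genotypes, with summed normalized counts of 8624 to 31150, 6640 to 9672, 9244 to 24400 and 7133 to 15180 in the order WT_BL, WT_SD, KO_BL and KO_SD, and 0 of the 11 was at 0 in any library. Their median log2 fold change was -1.20 in wild type and -0.84 in knockout. In limma Gpr6 passed as lower in wild type, beside 1.36% of all genes, and 0 of 11 passed in knockout. Averaged over both genotypes 7 of 11 striatal markers passed as lower, beside 10% of all genes. Summed hippocampal markers, of which 2 of 11 were at 0 in some library, ran from 2335 to 4651, 3455 to 5495, 2532 to 3927 and 2518 to 3954 in the same order of groups. Of those tested, 10 of 10 had higher means after sleep deprivation in wild type (median log2 fold change 0.95) and 7 of 9 in knockout (0.41). Averaged over both genotypes, 2 of 10 passed in limma, Spink8 and C1ql2, both higher, beside 10% of all genes. Summed cortex layer markers, 0 of 5 at 0, were 31530 to 35030 in undisturbed and 27460 to 30170 in sleep-deprived wild type, which do not overlap, and 27450 to 38140 and 24800 to 31640 in knockout, which do. Single genes did not all follow the sum, with 1 of 5 higher after sleep deprivation in each genotype. Fezf2 was the only 1 of the 5 that passed in limma averaged over both genotypes, and it was higher. Oligodendrocyte markers had higher means after sleep deprivation for 5 of 5 genes in both genotypes (median log2 fold change 0.21 in wild type and 0.37 in knockout), and neuron markers lower means for 5 of 5 in both (-0.093 and -0.066). The summed oligodendrocyte markers were 46750 to 81180, 57980 to 104200, 44650 to 68320 and 58700 to 100900 and the summed neuron markers 139400 to 154000, 131400 to 154900, 135800 to 155500 and 133800 to 156300 in the order of groups above, with 0 of 5 at 0 in each list. Astrocyte markers were higher for 6 of 6 genes in wild type (median 0.14) and 2 of 6 in knockout, with sums that overlapped between all 4 groups and lay between 60840 and 95640, the highest being that of KO_SD 1, and 0 of 6 was at 0. Summed hemoglobin and other blood markers were 1564 to 3309, 1012 to 2114, 1140 to 5024 and 564 to 2184, again with 0 of 5 at 0. Blood markers had lower means after sleep deprivation for 5 of 5 genes in both genotypes (median log2 fold change -0.77 in wild type and -0.97 in knockout). Alas2 passed as lower in limma in wild type, and Alas2 and Hbb-bt did so in the average. Of 5 endothelial markers 2 had higher means in each genotype, and Ly6c1 passed as higher in wild type and in the average. The part of these tissue differences in the results below was not tested. In bulk tissue, fewer cells of a type and less RNA per cell cannot be told apart.

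Of the 32 genes, Pfkfb3 was the only one that passed the test after sleep deprivation. It was higher in wild type mice and in the comparison averaged over both genotypes. The averaged comparison includes the same wild type libraries, so these are not separate findings, and in knockout alone Pfkfb3 did not pass. Pfkfb3 encodes the PFKFB isoform whose kinase activity most exceeds its phosphatase activity, so that it mainly makes fructose-2,6-bisphosphate. The gene lies on the minus strand of chromosome 2, from 11471433 to 11554077 on GRCm38, and shares no exon bases with another annotated gene. Its normalized counts in WT_BL were 668, 577, 637 and 548, and in WT_SD they were 908, 717, 932 and 1123. Every sleep-deprived wild type animal was above every undisturbed one. The means were 607 ± 54.7 and 920 ± 166 (SD, n = 4 per group), and the difference of 0.58 ± 0.13 (log2 fold change ± SE) was 1.5-fold with a 95% interval of 1.24 to 1.82 and an adjusted p of 0.0496 (limma, Benjamini-Hochberg over all genes tested). This adjusted p was close to the threshold of 0.05, and it lay above it in 13 of 20 other settings or with single libraries left out, between 0.00172 and 0.230 over all of them. The libraries whose removal ended the call were each of the 4 of WT_BL, WT_SD 1 and WT_SD 3, and the log2 fold change stayed between 0.48 and 0.70 with any 1 library left out. The authors' deposited table, which gives the undisturbed over the sleep-deprived group, held a log2 ratio of -0.50 for Pfkfb3 with a false discovery rate of 0.00173.

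In the libraries labelled knockout, Pfkfb3 normalized counts were 800, 649, 661 and 708 in KO_BL and 1525, 1147, 1047 and 628 in KO_SD. Of the sleep-deprived animals, 3 were above all undisturbed ones, and KO_SD 4 was below all of them. The means were 704 ± 68.3 and 1087 ± 368 (SD, n = 4 per group), and the log2 fold change of 0.56 ± 0.23 (SE) had an adjusted p of 0.359 (limma, Benjamini-Hochberg). Without KO_SD 4 the log2 fold change was 0.80 with an adjusted p of 0.0612, and without KO_SD 1 it was 0.37 with an adjusted p of 0.295. Without KO_BL 1, KO_SD 1 and KO_SD 4, an alternative chosen after seeing the data, the log2 fold change was 0.70 and the adjusted p 0.00851 in limma. The authors' deposited table gave a log2 ratio of -0.47 and a false discovery rate of 0.162 in the same direction of undisturbed over sleep-deprived.

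Averaged over both genotypes, with 8 animals against 8, Pfkfb3 rose by 0.57 ± 0.14 (log2 fold change ± SE), which is 1.49-fold with a 95% interval of 1.21 to 1.82 (limma, Benjamini-Hochberg adjusted p = 0.0174). It passed under all 28 other settings and left-out libraries of that comparison, with log2 fold changes of 0.48 to 0.69. The effect in the knockout minus that in wild type was -0.02 ± 0.28 (log2 ± SE), and its 95% interval ran from -0.61 to 0.56, which is 0.654 to 1.48 as a ratio of the folds.

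The 2 other PFKFB genes did not pass. Pfkfb2, the isoform named for the heart, had normalized counts of 779 ± 80.9 (WT_BL), 724 ± 66.0 (WT_SD), 799 ± 36.9 (KO_BL) and 710 ± 189 (KO_SD), as mean ± SD with n = 4 per group. Pfkfb4, known from testis and from tumours, had 341 ± 44.1, 363 ± 44.3, 334 ± 21.5 and 350 ± 53.3 in the same order. KO_SD 4 held the lowest count of Pfkfb2 of its group, 463, and it was also the low library for Pfkfb3.

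The share of each isoform in the FPKM of the 3 PFKFB genes does not depend on the scaling of a library, and the gene lengths are 2460 bases for Pfkfb2, 2210 for Pfkfb3 and 1730 for Pfkfb4. Pfkfb3 took 34.4, 34.2, 38.8 and 32.2% of it in WT_BL and 44.6, 38.9, 45.7 and 50.6% in WT_SD. It took 40.1, 36.2, 36.6 and 39.3% in KO_BL and 55.8, 49.4, 47.7 and 43.7% in KO_SD. In both genotypes every sleep-deprived animal, KO_SD 4 included, was above every undisturbed one, with the closest pair in wild type at 38.9 and 38.8%. KO_SD 4 held 14.46 FPKM of Pfkfb3, below the 15.41 to 18.54 of KO_BL. Its Pfkfb2, at 9.57 FPKM, was below the 16.05 to 17.58 of KO_BL, so its higher share went with less of both genes. The mean share was 34.9 ± 2.77% in WT_BL and 45.0 ± 4.79% in WT_SD, and 38.0 ± 1.93% in KO_BL and 49.1 ± 5.03% in KO_SD (SD, n = 4 per group). Pfkfb2 took 40.2 ± 3.23% in WT_BL and 32 ± 2.99% in WT_SD, against 38.9 ± 1.37% in KO_BL and 29.3 ± 0.705% in KO_SD. These shares were computed after the counts of Pfkfb3 had been seen and are given as a description without a test.

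**Figure D1:**
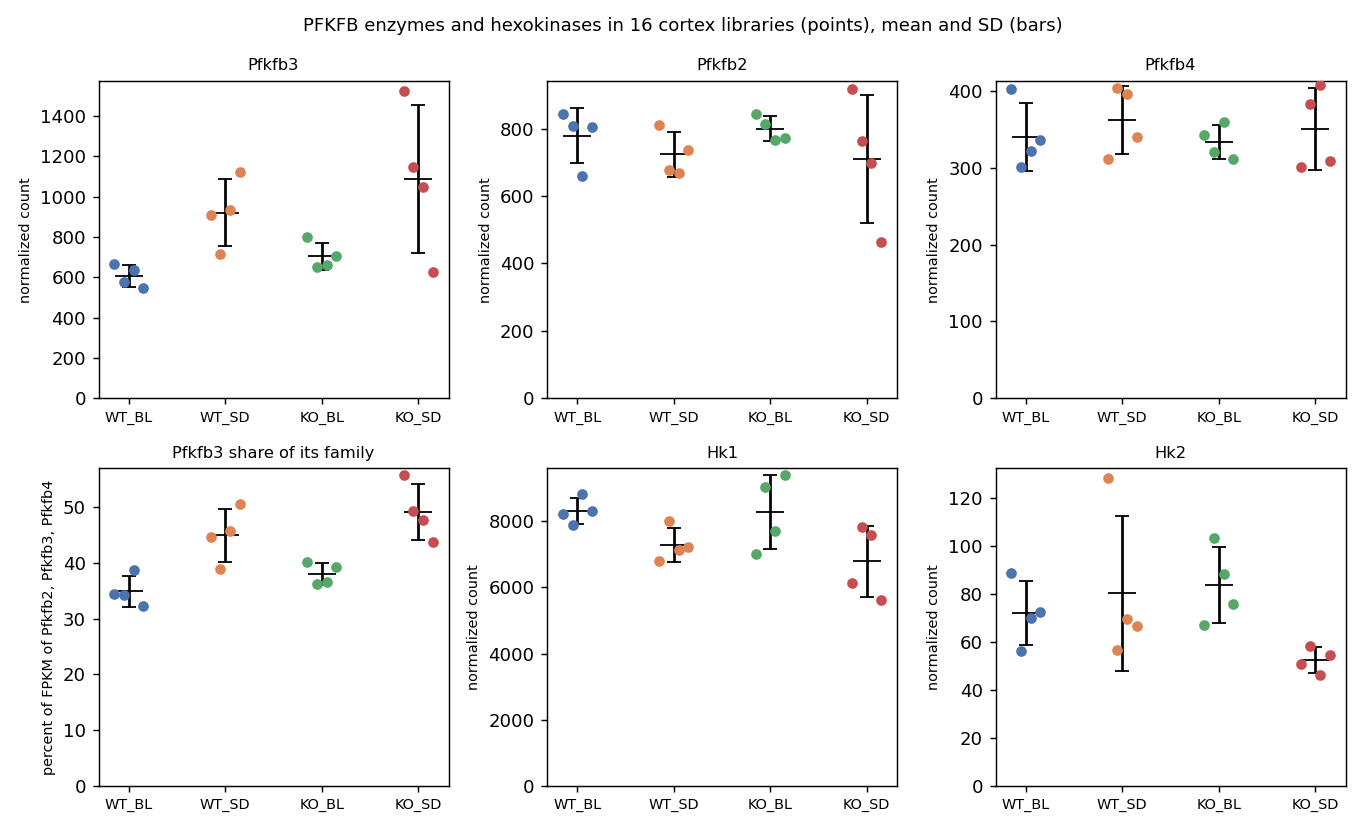
Normalized counts of Pfkfb3, Pfkfb2, Pfkfb4, Hk1 and Hk2, and the percent of the summed FPKM of the PFKFB genes that Pfkfb3 holds, in each of 16 libraries (points, 4 per group) with the group mean and SD (bars); all vertical axes start at 0. The Pfkfb3 share separates sleep-deprived from undisturbed animals in both genotypes (38.9 to 50.6% against 32.2 to 38.8% in wild type), while the Pfkfb3 count of KO_SD 4 lies at 628, below the undisturbed knockout animals.

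Because Pfkfb3 was the member that rose, the 250 bases before its start are shown, with those of Ldha, the member whose window held the most ACGTG letters, beside them. RefSeq windows on GRCm38.p6 were found for 30 of the 32 genes, Slc2a3 and Slc16a7 being those without one. The letters searched on both strands were ACGTG, the core bound by HIF1 and by bHLH factors such as CLOCK and BMAL1 (as CACGTG), and TGACG, the core letters of the cAMP response element. A palindrome such as CACGTG counts as 2 matches, 1 on each strand, and TGACGTG holds both motifs. Capitals mark the matches on either strand in these windows, chr2:11502091-11502340 (minus strand) for Pfkfb3 and chr7:46845554-46845803 (plus strand) for Ldha.
Pfkfb3: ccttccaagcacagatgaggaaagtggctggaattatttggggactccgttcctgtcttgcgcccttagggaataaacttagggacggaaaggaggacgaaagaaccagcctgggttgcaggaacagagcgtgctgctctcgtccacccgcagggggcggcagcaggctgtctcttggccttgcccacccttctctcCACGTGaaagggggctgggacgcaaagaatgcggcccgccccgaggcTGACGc
Ldha: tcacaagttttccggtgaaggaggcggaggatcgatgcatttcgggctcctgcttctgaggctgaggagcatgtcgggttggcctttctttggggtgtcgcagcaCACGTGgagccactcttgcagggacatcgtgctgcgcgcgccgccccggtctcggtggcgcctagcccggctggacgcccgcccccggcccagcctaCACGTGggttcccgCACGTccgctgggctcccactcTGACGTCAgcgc
The Pfkfb3 window held 1 CACGTG, counted as 2 ACGTG matches, and 1 TGACG next to its start. A short stretch of bases soon after the window was found, as an exact match, in 10 annotated transcripts of the gene. A second RefSeq start of Pfkfb3, with a window from 11553930 to 11554179 on chromosome 2, had 1 ACGTG and 2 TGACG matches. The Ldha window held 5 ACGTG matches and 2 TGACG matches, and the stretch soon after it was found in 0 annotated transcripts in GENCODE M21. A transcript that starts a little later or is spliced within the stretch would be missed. The other RefSeq window of Ldha, from 46846832 to 46847081 on chromosome 7, had 0 ACGTG matches and 1 TGACG match, and the stretch soon after it was found in 1 transcript. Ldha normalized counts were 5831 ± 282 in WT_BL and 6448 ± 541 in WT_SD (SD, n = 4 per group), a log2 fold change of 0.14 ± 0.08 (SE) that did not pass (limma, Benjamini-Hochberg adjusted p = 0.383). ACGTG stood in windows of 14 of the 30 genes, where a gene counts if any of its windows holds it, and in 16.6% of all 32851 windows. TGACG stood in windows of 8 of the 30 genes and in 17.8% of all windows. Several of the 30 genes have more than 1 window, 46 in all, so these shares are not on the same footing, and a match is only a run of letters.

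The rest of the pathway did not pass in either genotype. In wild type, 1 of 32 members passed (limma, Benjamini-Hochberg), against 1.36% of all 14310 genes tested, and 3 had an unadjusted p below 0.05 against 17.4% of all genes. The groups did not overlap for 2 members, Pfkfb3 and Pdk4, both higher after sleep deprivation, against 10.3% of all genes. Of the 32, 16 were higher and 16 lower, and the median log2 fold change was -0.0025 beside -0.0013 over all genes tested. The median size of the change was 0.099 on the log2 scale, beside 0.13 over all genes. The 95% interval of the change stayed within 1.5-fold in either direction for 28 members and within 1.25-fold for 19, so changes larger than that were outside the intervals of those genes.

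In the libraries labelled knockout, 0 of 32 passed in limma, with 2 at an unadjusted p below 0.05, and edgeR and DESeq2 on recovered reads also called 0. Over all 14318 genes tested 0.23% passed and 12.3% had an unadjusted p below 0.05. The groups did not overlap for 1 member, Hk2, against 8.23% of all genes. Of the 32, 17 were higher, with a median of 0.0058 beside -0.0021 over all genes. That count rested on single libraries, with 10 of 32 higher and a median of -0.029 without KO_SD 4, and 20 of 32 higher and a median of 0.040 without KO_SD 1. The interval stayed within 1.5-fold for 24 and within 1.25-fold for 8. Averaged over both genotypes, 1 of 32 passed against 10% of 14604 genes, and 3 had an unadjusted p below 0.05 against 27.3%. In that comparison 15 of 32 were higher, and the interval stayed within 1.5-fold for 29 and within 1.25-fold for 20.

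**Figure D2:**
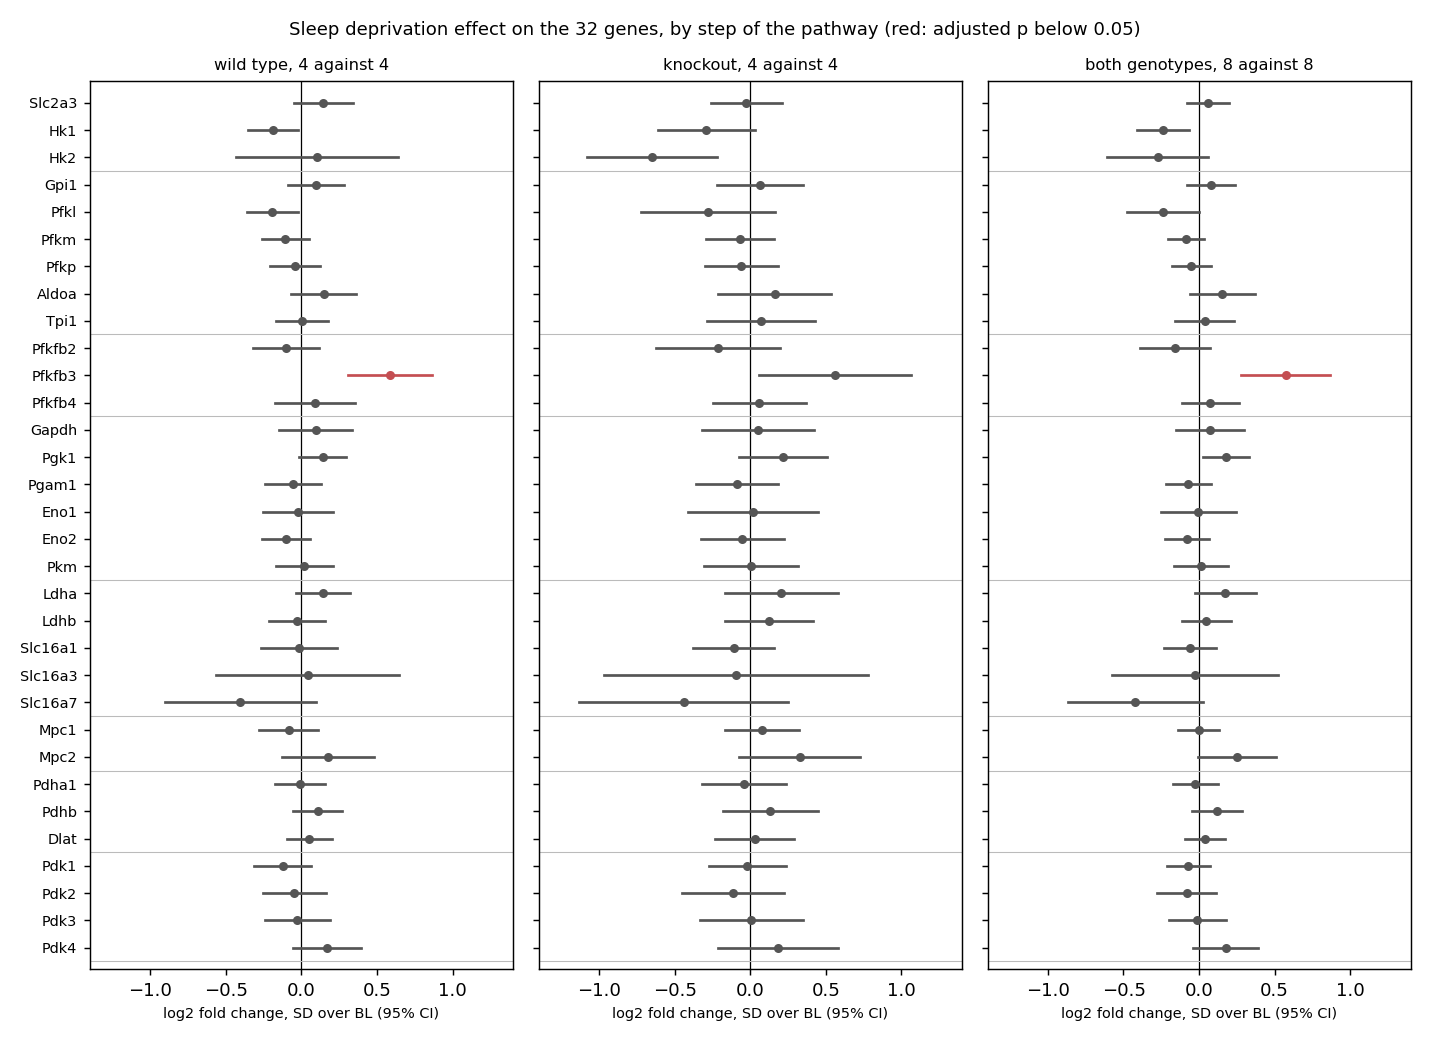
Log2 fold change of sleep deprivation over baseline (points) with its 95% confidence interval (lines) for the 32 genes in pathway order, in wild type, in knockout and averaged over both genotypes; grey lines part the steps of the pathway and red marks an adjusted p below 0.05 (limma, Benjamini-Hochberg). Pfkfb3 alone is red, at 0.58 in wild type and 0.57 in the average, and most of the other points lie within 0.25 of 0.

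Glucose enters neurons through Slc2a3 (GLUT3), which was at 99.8 FPKM over the 16 libraries, and is phosphorylated by hexokinase. Hk1, the hexokinase bound to mitochondria and the main one of brain, held 99.0 to 99.7% of the FPKM of Hk1 and Hk2 over the libraries. WT_BL libraries had 8223, 7884, 8821 and 8302 normalized counts of Hk1 and WT_SD libraries 6796, 8008, 7136 and 7216. KO_BL libraries had 7011, 9053, 7716 and 9395 and KO_SD libraries 6139, 7832, 7582 and 5623. In wild type 3 of 4 sleep-deprived animals lay below all undisturbed ones, and in the knockout the groups overlapped. The log2 fold change was -0.19 ± 0.08 (SE) in wild type, -0.29 ± 0.15 in knockout and -0.24 ± 0.08 averaged, with adjusted p of 0.226, 0.438 and 0.0689 (limma, Benjamini-Hochberg). In the averaged comparison Hk1 passed as lower with DESeq2 on recovered reads (adjusted p = 0.0407), with the trend with gene length removed (0.0343), and without KO_BL 1 (0.0395) or KO_SD 2 (0.0414). Of the 28 other settings and left-out libraries of that comparison, these were the only ones in which Hk1 passed. Hk1 overlaps an antisense gene, Hk1os, and no source used here gives the strandedness of the counting. Hk1 was not alone in this. Aldoa, Gapdh, Tpi1, Pfkm, Pfkp and Pdha1, among others, share exon bases with a gene on the opposite strand. Pfkfb2, part of the PFKFB shares above, shares exon bases with Gm29427 on the same strand and Yod1 on the opposite one.

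Hk2, the insulin-responsive hexokinase of muscle and fat that is low in brain, was the member with the lowest level at 1.58 FPKM. Its normalized counts were 66.8, 103, 88.1 and 75.7 in KO_BL and 50.6, 58.3, 45.9 and 54.3 in KO_SD, and every sleep-deprived animal was below every undisturbed one. The log2 fold change of -0.65 ± 0.20 (SE) had an unadjusted p of 0.0069 and an adjusted p of 0.243 (limma, Benjamini-Hochberg), which does not pass. In wild type the counts were 88.5, 56.0, 69.9 and 72.5 in WT_BL and 128, 56.6, 69.3 and 66.6 in WT_SD, a log2 fold change of 0.10 ± 0.25 (SE), with WT_SD 1 far above the other animals. The effect in knockout minus that in wild type was -0.75 ± 0.32 (log2 ± SE), the smallest unadjusted p of the 32 interactions at 0.0303, with an adjusted p of 1 in limma.

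Among the 6 enzymes of upper glycolysis, from glucose-6-phosphate to the triose phosphates, 0 of 6 members passed in any comparison. Aldoa, the aldolase of neurons and muscle, was the most abundant member at 1665 FPKM, and Tpi1, triose phosphate isomerase, stood at 897 and Gpi1, glucose-6-phosphate isomerase, at 412. Phosphofructokinase, the committing enzyme, was present as all 3 isoforms, with Pfkp (platelet) at 212, Pfkm (muscle) at 153 and Pfkl (liver) at 126 FPKM. FPKM depends on gene length, deposited as 1670 bases for Pfkp, 2850 for Pfkm and 1350 for Pfkl. In normalized counts, which are not divided by length, the order differed. The WT_BL means were 8682 for Pfkm, 6847 for Pfkp and 3677 for Pfkl. Pfkp held 41.5 ± 1.35, 43.3 ± 2.39, 43.3 ± 3.21 and 45.0 ± 4.86% of the phosphofructokinase FPKM in WT_BL, WT_SD, KO_BL and KO_SD (SD, n = 4 per group). Pfkl had normalized counts of 3677 ± 66.6 in WT_BL and 3225 ± 278 in WT_SD (SD, n = 4 per group), a log2 fold change of -0.19 ± 0.08 (SE) that did not pass (limma, Benjamini-Hochberg adjusted p = 0.230). In knockout Pfkl had 3428 ± 621 and 2868 ± 704, with KO_SD 1 the lowest of all 16 libraries at 1871.

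In lower glycolysis, from the triose phosphates to pyruvate, 0 of 6 passed in any comparison. Gapdh, the dehydrogenase often used as a reference gene, was at 1249 FPKM, with a coefficient of variation of 14.1% over the 16 libraries. Its log2 fold change was 0.09 ± 0.11 (SE) in wild type and 0.05 ± 0.17 in knockout. Enolase was mostly the neuronal form, Eno2, at 869 FPKM against 520 for Eno1, the form of glia and most other tissues. Eno2 held 62.6 ± 2.05, 61.3 ± 2.60, 64.2 ± 1.10 and 63.0 ± 4.09% of their FPKM in WT_BL, WT_SD, KO_BL and KO_SD, a range that overlapped between all groups. Pkm, pyruvate kinase, was at 485 and Pgam1, phosphoglycerate mutase, at 55.9 FPKM. Pgk1, phosphoglycerate kinase and the first ATP-yielding step, had normalized counts of 2666 ± 30.4 and 2941 ± 192 in undisturbed and sleep-deprived wild type and of 2687 ± 197 and 3150 ± 519 in knockout (SD, n = 4 per group). Its averaged log2 fold change was 0.18 ± 0.07 (SE) with an adjusted p of 0.118 (limma, Benjamini-Hochberg). The copies Eno1b and Pgk1-rs7 were at normalized counts of 6.17 or less in every library, and no pseudogenes are listed as a gene type in the table, so reads shared with such copies cannot be followed.

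**Figure D3:**
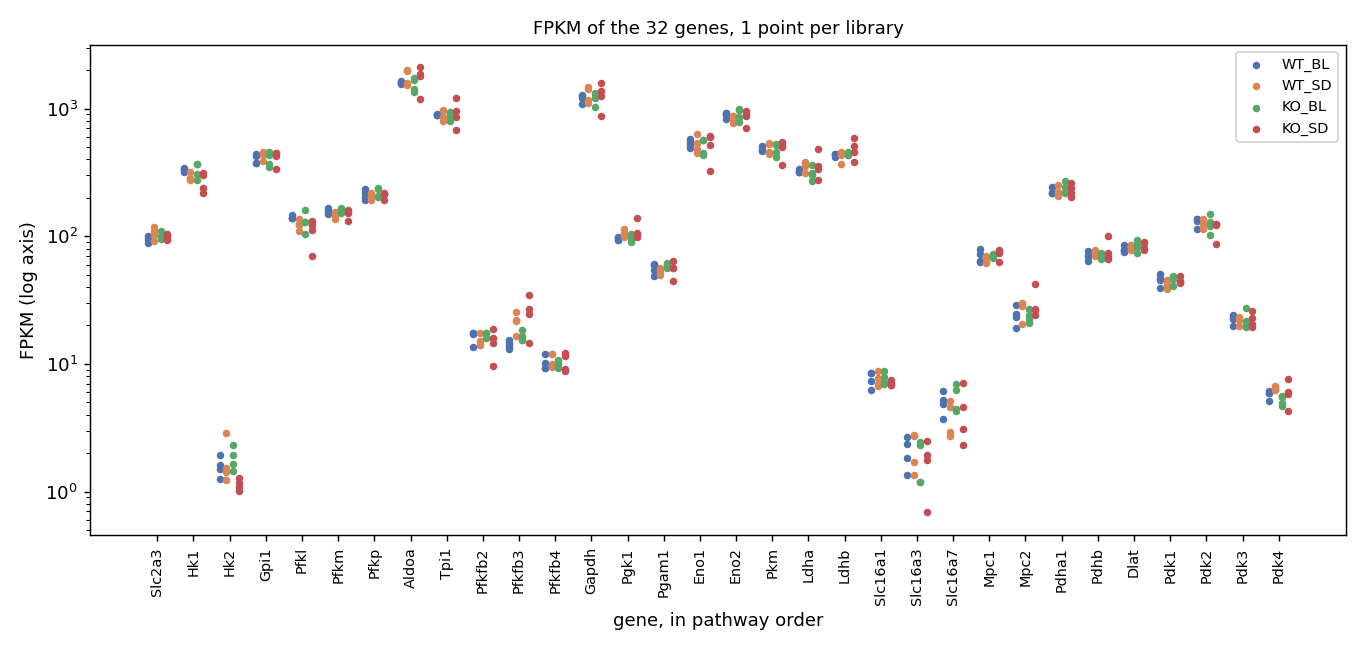
FPKM (log axis) of the 32 genes in pathway order, 1 point per library, with 4 libraries in each of the 4 groups shown by colour. Levels run from 1.58 FPKM for Hk2 to 1665 for Aldoa as means of 16 libraries, and the colours overlap within nearly every gene.

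Of the members, 18 stood above the 90th percentile of FPKM of the table's tested genes and 6 below the 50th. Lactate dehydrogenase, which interconverts pyruvate and lactate, is built of LDHA subunits, held to favour lactate formation, and LDHB subunits, held to favour its use. Ldhb was at 445 and Ldha at 338 FPKM, and Ldhb held 57.3 ± 1.07 and 54.4 ± 3.08% of their sum in undisturbed and sleep-deprived wild type, and 58.7 ± 3.47 and 57.3 ± 1.59% in knockout (SD, n = 4 per group). The low share in WT_SD rested partly on WT_SD 1 at 50.7%, while WT_SD 4 was at 58.3%. The lactate transporters were low, with Slc16a1 (MCT1, of endothelium and glia) at 7.49, Slc16a7 (MCT2, of neurons) at 4.64 and Slc16a3 (MCT4, of astrocytes) at 1.92 FPKM. Of these 5 genes, 0 passed in the comparisons as fitted.

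Slc16a7 had the largest negative point estimate of the members in wild type. Its normalized counts were 305, 275, 370 and 210 in WT_BL and 263, 158, 168 and 303 in WT_SD, and 408, 246, 366 and 260 in KO_BL and 422, 268, 180 and 137 in KO_SD. The groups overlapped in both genotypes. The averaged log2 fold change was -0.42 ± 0.21 (SE) with an adjusted p of 0.209 (limma, Benjamini-Hochberg). Without KO_SD 1, the library with the highest count, it passed at -0.57 with an adjusted p of 0.0454, and Aldoa then also passed as higher at 0.24 with an adjusted p of 0.0469.

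Pyruvate enters mitochondria through a carrier of MPC1 and MPC2 subunits, at 69.7 and 26.2 FPKM. Mpc1 held 74.5 ± 1.70 and 70.9 ± 3.37% of their FPKM in undisturbed and sleep-deprived wild type, and 74.8 ± 2.43 and 71.3 ± 4.70% in knockout, with overlap in both genotypes. Inside, the pyruvate dehydrogenase subunits Pdha1 and Pdhb (both of E1) and Dlat (E2) stood at 229, 73.1 and 82.3 FPKM. Their log2 fold changes after sleep deprivation were between -0.008 and 0.11 in wild type and between -0.042 and 0.13 in knockout, and 0 of 3 passed.

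Of the 4 kinases that phosphorylate and silence pyruvate dehydrogenase, Pdk2 was the most abundant, with 63.6 ± 3.11, 64.0 ± 3.13, 62.7 ± 5.59 and 60.8 ± 6.22% of the kinase FPKM in WT_BL, WT_SD, KO_BL and KO_SD. Pdk1 stood at 44.5, Pdk3 at 22.2 and Pdk4, the isoform induced by fasting and glucocorticoids, at 5.84 FPKM. Pdk4 normalized counts were 224, 218, 238 and 191 in WT_BL and 240, 239, 242 and 256 in WT_SD. The WT_SD animals lay closely together, just above the highest WT_BL animal. The log2 fold change of 0.17 ± 0.10 (SE) did not pass (limma, Benjamini-Hochberg adjusted p = 0.424). In KO_BL the counts were 178, 204, 211 and 188 and in KO_SD 298, 219, 225 and 164, with KO_SD 1 the highest and KO_SD 4 the lowest of all 16 libraries.

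Genotype made no difference that passed. At baseline 0 of 32 members passed in limma, edgeR or DESeq2, and 0 had an unadjusted p below 0.05 in each tool, while 0.0139% of 14341 genes passed in limma and 2.75% had an unadjusted p below 0.05. The groups overlapped for every member, against 1.78% of genes without overlap. The interval of the genotype difference stayed within 1.5-fold for 30 members and within 1.25-fold for 26. The smallest unadjusted p was that of Pfkfb3, 0.0534, with 607 ± 54.7 in WT_BL and 704 ± 68.3 in KO_BL (SD, n = 4 per group), a knockout minus wild type difference of 0.21 ± 0.10 (log2 ± SE). Pdk4 was next, at -0.16 ± 0.12.

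After sleep deprivation 0 of 32 members passed between genotypes in limma, edgeR or DESeq2, with 0 at an unadjusted p below 0.05 in limma and 1 in each of the other 2 tools. Over all 14280 genes 0.0% passed, 1.62% had an unadjusted p below 0.05 and 1.35% did not overlap, against 0 members without overlap. Hk2 had the smallest unadjusted p of 0.0543, with 80.1 ± 32.4 in WT_SD and 52.3 ± 5.30 in KO_SD (SD, n = 4 per group), a difference of -0.54 ± 0.25 (log2 ± SE) that was -0.29 without WT_SD 1. It was followed by Mpc1 at 0.17 ± 0.11. Averaged over sleep conditions 0 of 32 passed in the 3 tools, with 0 at an unadjusted p below 0.05 in each, against 0.0% passed and 3.11% of all genes. There the smallest unadjusted p were those of Pdk4 at -0.15 ± 0.10 and Pfkfb3 at 0.20 ± 0.14. The averaged interval stayed within 1.5-fold for 31 members and within 1.25-fold for 26.

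For the interaction of genotype and sleep deprivation 0 of 32 passed in the 3 tools, with 1, Hk2, at an unadjusted p below 0.05, against 0.0% passed and 1.1% of all 14604 genes. Next after Hk2 came Slc2a3, at -0.17 ± 0.13 (log2 ± SE) with an unadjusted p of 0.208. The interval stayed within 1.5-fold for 27 members but within 1.25-fold for 3 only. With 4 animals a group, the intervals of most members thus also held differences in the response larger than 1.25-fold. The effects of sleep deprivation in wild type and in knockout, which share no libraries, had the same sign for 25 of 32 members (78.1%), beside 78.2% of 14214 genes, with a Pearson correlation over the members of 0.71 beside 0.70 over all genes. Genes of one library are not independent of each other, so these figures are a description.

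The members spread most in KO_SD. The median SD over members of log2(normalized count + 1) was 0.12, 0.12, 0.15 and 0.24 for WT_BL, WT_SD, KO_BL and KO_SD, beside 0.16, 0.18, 0.18 and 0.29 over all genes. KO_SD 1 had the lowest count of all 16 libraries for 11 members and the highest for 5, and KO_SD 4 the highest for 10 and the lowest for 4. The share of all recovered reads that fell on the 32 genes was 1.03 ± 0.018, 1.05 ± 0.087, 1.03 ± 0.079 and 1.05 ± 0.162% in that order (SD, n = 4 per group). It was lowest in KO_SD 1 at 0.824% and highest in KO_SD 4 at 1.2%. The members were shorter than most genes, with a median length of 1515 bases beside 1990 over the genes tested. A library's deviation from the average had a Spearman correlation with gene length of 0.35 in KO_SD 1 and of -0.49 in KO_SD 4. The 4 libraries with the largest shares of reads on the 32 genes, KO_SD 4, WT_SD 2, KO_SD 3 and WT_SD 3, also had the 4 lowest correlations, from -0.49 to -0.30, and all 4 were sleep-deprived. With the length trend removed, the median log2 fold change of the members was -0.055 with 11 of 32 higher in knockout and -0.046 with 12 of 32 higher in the average, in place of 17 and 15 higher. In wild type it was -0.0089 with 16 of 32 higher, the same count as before.

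**Figure D4:**
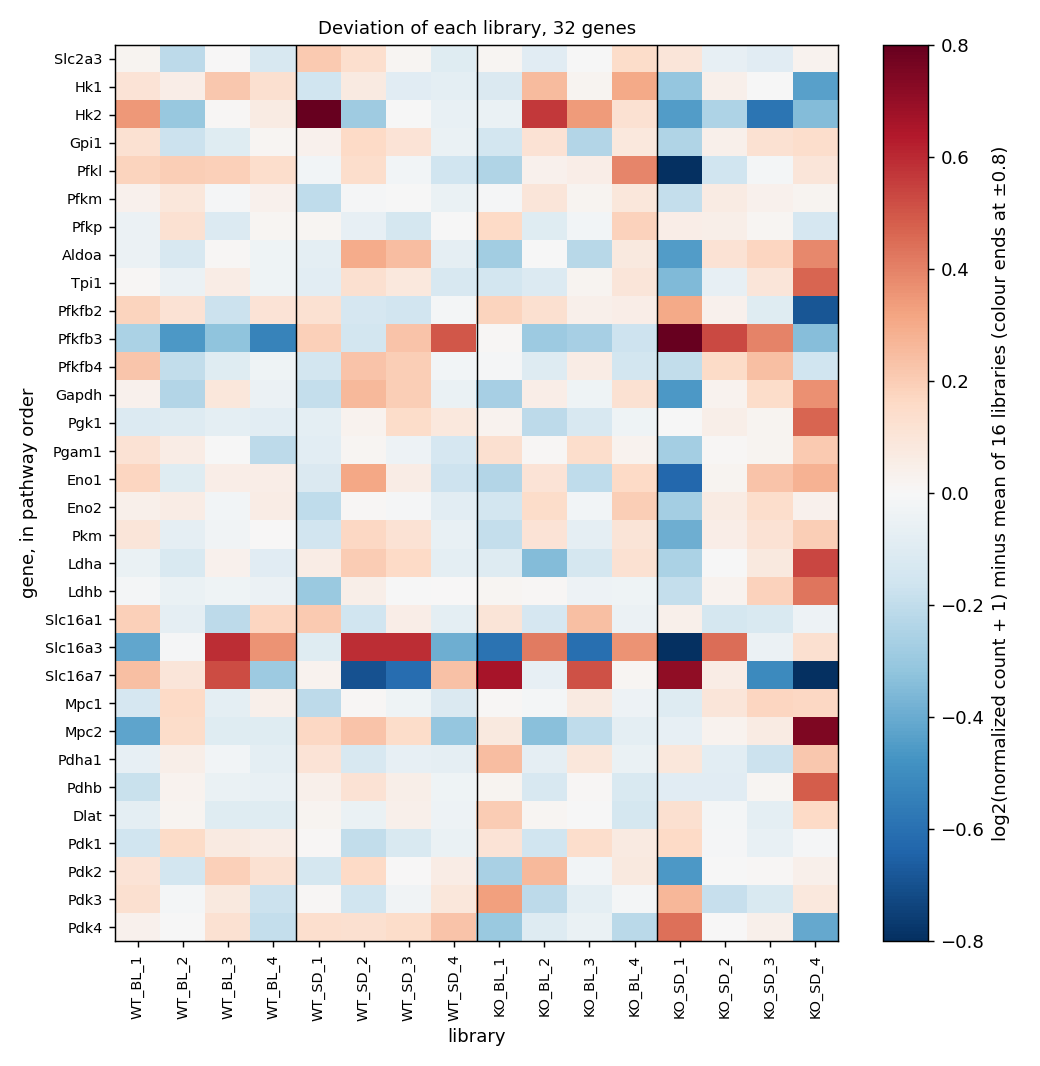
Log2(normalized count + 1) of each gene minus its mean over the 16 libraries, with genes in pathway order, libraries by group and colours ending at 0.8 on either side. Pfkfb3 is blue in WT_BL and red in most sleep-deprived libraries, and the columns of KO_SD 1 and KO_SD 4 are the most strongly coloured, in opposite directions for Aldoa, Tpi1, Gapdh, Eno1 and Pkm.

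**Figure D5:**
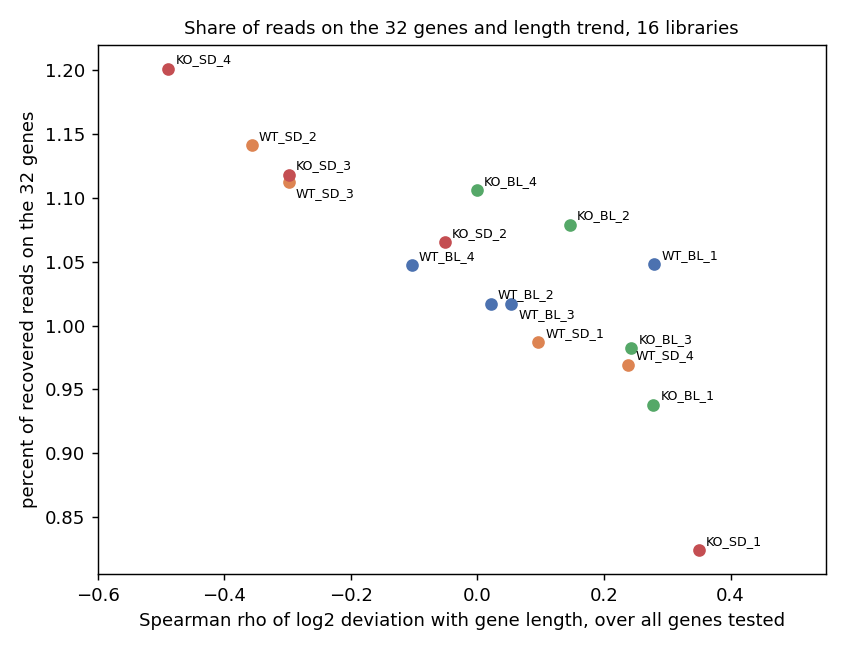
Percent of recovered reads on the 32 genes (vertical) against the Spearman correlation over all genes tested of each library's log2 deviation with gene length (horizontal), 1 point per library coloured by group; the vertical axis does not start at 0. KO_SD 4 stands at 1.2% and -0.49 and KO_SD 1 at 0.824% and 0.35, the opposite corners of the plot.

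The genes around the pathway were read from 6 lists of 58 genes, of which 56 passed the filter. Neither genotype alone had a called gene among them in limma or edgeR, with 12 in wild type and 5 in knockout at an unadjusted p below 0.05 in limma, beside 17.4% and 12.3% of all genes. DESeq2 on recovered reads called 4 of them in wild type (Hkdc1, Ogdh, Pdp1 and Slc2a1) and 0 in knockout, where it called 676 and 309 genes over the whole table. Averaged over both genotypes 5 of 56 passed in limma against the 10% of all genes. They included both phosphatases that switch pyruvate dehydrogenase back on, in opposite directions. Pdp1, the calcium-stimulated one, had normalized counts of 2633, 2460, 3072 and 2753 in WT_BL and 3160, 3293, 3617 and 4274 in WT_SD, and 3526, 2616, 3474 and 2604 in KO_BL and 5911, 4325, 3805 and 3784 in KO_SD. Sleep-deprived animals lay above undisturbed ones in both genotypes, and the averaged change was 0.46 ± 0.11 (log2 ± SE, limma adjusted p = 0.0128). Pdp2, the one that calcium does not stimulate, had 122, 126, 128 and 89.1 in WT_BL and 78.6, 80.5, 82.1 and 112 in WT_SD, and 138, 120, 146 and 114 in KO_BL and 102, 95.1, 79.5 and 56.8 in KO_SD. It fell by 0.52 ± 0.13 (log2 ± SE, limma adjusted p = 0.0223), with groups that overlapped in wild type and not in knockout, and the adjusted p was 0.0515 without WT_BL 3 and 0.0524 without WT_SD 3.

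Emb, embigin, an accessory protein of monocarboxylate transporters, had means of 490 ± 25 and 592 ± 39.7 in undisturbed and sleep-deprived wild type and 510 ± 42.7 and 639 ± 45.9 in knockout (SD, n = 4 per group), and rose by 0.30 ± 0.06 (log2 ± SE, limma adjusted p = 0.00982). Slc25a12, the aspartate-glutamate carrier of the malate-aspartate shuttle that returns cytosolic NADH electrons to mitochondria, had 3188 ± 90.5, 2746 ± 178, 3409 ± 133 and 2804 ± 150 in the same order and fell by 0.25 ± 0.05 (limma adjusted p = 0.0099). In both genotypes the groups did not overlap for either gene. Me2, mitochondrial malic enzyme, fell by 0.38 ± 0.12 (limma adjusted p = 0.0488), a call that was lost in 14 of 28 alternatives, among them leaving out WT_BL 1 or 3, WT_SD 1, 2 or 3, KO_BL 1, 3 or 4 or KO_SD 2, 3 or 4, with log2 fold changes of -0.44 to -0.32. Slc2a1 (GLUT1), the glucose transporter of the blood-brain barrier and astrocytes, had 1205 ± 110 in WT_BL and 1638 ± 171 in WT_SD (SD, n = 4 per group) with an adjusted p of 0.0507 in limma, and 1256 ± 285 and 1314 ± 142 in knockout. Its effect in knockout minus that in wild type was -0.36 ± 0.19 (log2 ± SE, limma unadjusted p = 0.0815) and did not pass. The averaged change of Slc2a1, 0.26 ± 0.10, did not pass either (limma adjusted p = 0.0892). Of 15 citric acid cycle genes 13 were higher in the average, beside 49.3% of all genes, and 0 passed in limma or edgeR. The middle change of these genes was small, at 0.067 on the log2 scale. The list also leaned higher in knockout than in wild type, for 11 of 15 genes at baseline and 12 of 15 after sleep deprivation. Such a lean was thus not particular to sleep deprivation. In the average over both genotypes DESeq2 on recovered reads called 9 of the 56 genes, among them Cs, Dlst and Suclg1 of this cycle. Suclg1 also passed in limma without KO_BL 1, KO_SD 1 and KO_SD 4. Of 7 pentose phosphate genes 4 were higher and 0 passed, and of 11 further glucose uptake and glycolysis genes 5 were higher and 0 passed.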

How the data were processed

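Per the labels' protocols, cortex RNA was purified on spin columns, treated with DNase and read on a HiSeq2500. The submitters' processing notes name 2 tools, edgeR and RSEM 1.2.19, and the genome builds GRCm38 and mm10. The deposited normalized count is a signal that the authors made by multiplying gene counts by 1 factor for each library, as the headers and the spacing of low values show. FPKM values, per the file headers made by the authors, were used for levels between genes and for the share of each gene in its family by library, and no test was run on them. The log2 ratio and the p-value and false discovery rate of the authors are quoted as deposited. Another 48 per-sample columns were not used here. Gene length is a deposited column, in bases, and was not checked. Levels between genes and family shares in FPKM depend on the lengths used. Low values were whole reads within 0.1 read for 100% of them in every library.

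Each comparison was tested with limma 3.58.1 (R 4.3.3, mean-variance trend and robust step) on log2(normalized count + 1), which understates the change of low genes, two-sided, with Benjamini-Hochberg adjustment over all genes at 0.05. Genes needed a normalized count of 10 in 4 libraries. Pairwise fits held 8 libraries of 1 sheet, and averaged effects and the interaction held all 16. Printed counts come from the wild type sheet, and factors differed by at most 0.264% between sheets. Alternatives included edgeR 4.0.16 and DESeq2 1.42.0 on recovered reads. Fits were also run on simulated counts, drawn for each gene on its own. These held no tissue or length differences between libraries, so they do not check the fits against those. Gene positions came from GENCODE M21, which matched 22570 of 22880 identifiers, and promoters from RefSeq on GRCm38.p6.

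Members and lists were chosen with earlier results of these data known. Named were members that passed, those in 1 genotype with an unadjusted p below 0.05 and no overlap, the 2 smallest p among members per genotype comparison and interaction, and called or leading genes of the related lists. Hk1, Pfkl, Pgk1, Slc16a7, Pdk4 in wild type, Ldha and the other members whose values are given to show the pathway were added after their values were seen.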

Additional observations from a re-analysis of the deposited data

Results flagged for a closer look

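Of 128 sets of 4 libraries, 1 for each member and group, 7 held a library that stood apart from the other 3 by a Dixon test at the 95% level, which chance alone passes in about 1 set of 20. KO_SD 4 was the highest for Pdhb at 2916 normalized counts (others 1957 to 2108), for Mpc2 at 1516 (861 to 945) and for Pgk1 at 3926 (2843 to 2944). KO_SD 1 was the lowest for Pfkm at 7407 (8591 to 8831) and for Pdk2 at 1619 (2225 to 2295). WT_SD 1 was the lowest for Ldhb at 6645 (8141 to 8440), and WT_BL 2 the highest for Dlat at 1906 (1759 to 1783).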

How the results depend on the processing

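In wild type the count of members called fell from 1 to 0 with no filter, with a filter of 50, with median-of-ratios or TMM scaling, with no trend or robust step, with edgeR on recovered reads and with all 16 libraries in 1 model. It was 0 to 1 over the libraries left out in turn, 0 without WT_BL 1, 2, 3 or 4 and without WT_SD 1 or 3. Pfkfb3 there ranged from 0.48 to 0.70 on the log2 scale over all of these, and the adjusted p from 0.00172 to 0.230. In knockout the count was 1 in place of 0 without KO_BL 1, KO_SD 1 and KO_SD 4, and 0 otherwise. In the average it was 2 with DESeq2 and with the length trend removed, and 1 to 3 over left-out libraries, and 1 elsewhere. In the genotype comparisons and the interaction 0 members passed in any setting run. Deviations of same-numbered libraries had correlations from -0.40 to 0.38. The libraries numbered 1 deviated together in each pair (0.17 to 0.38), while other numbers held pairs below 0, and 7 of 16 libraries matched their own number best. The numbers were not taken as pairing the samples, and why the libraries numbered 1 deviated together was not tested. With the replicate block, 1 member passed in wild type, 0 in knockout and 1 in the average. Over all genes the block gave 230 calls in wild type in place of 194, and 47 in knockout in place of 33. Over all genes, the calls were 194 in wild type and 79 to 676 under the other settings (46 to 508 over left-out libraries), 33 in knockout and 23 to 383 (0 to 70), and 1461 in the average and 1275 to 2159 (728 to 2369). Depth limits Slc16a3 and Hk2 most, with 16 to 117 and 30 to 125 recovered reads per library.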
